A study of Mus musculus with 18 samples.

Results

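MPP4 and HSC are the labels of 2 populations of lineage-negative mouse bone marrow: HSC stands for haematopoietic stem cells, and MPP4 in common usage for multipotent progenitors that are primed towards the lymphoid lineages. The comparison was made within mutant marrow, between 4 MPP4 mutant libraries and 3 HSC mutant libraries, 7 of the 18 libraries of the series, chosen by population and genotype and not by any measured value. All came from BALB/c mice with a mutation in Dnmt1, whose product is the maintenance methyltransferase that restores CpG methylation behind the replication fork. The genotype field writes this mutation as dnmt1-/-, while the series text describes a specific hypomorphic change, built into mouse Dnmt1 after missense mutants of fish with defective lymphoid development. The 7 control libraries of the same populations (4 MPP4 and 3 HSC) were wild type on the same strain. Neither ages nor sorting gates are given in the labels.

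Blood stem cells rest for long periods, renew themselves and feed every blood lineage. On the way to lymphoid-primed progenitors, cells leave this resting state, divide more often, lose the programme shared with platelet and red cell precursors and gain the cytokine receptor Flt3 and early lymphoid genes such as Dntt, the enzyme that adds bases at the joints of rearranged antigen receptor genes. Maintenance DNA methylation is known to be needed for normal stem cell function and for lymphoid development.

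Expression was measured by CEL-Seq2, which counts transcripts from their poly(A) end with a random tag per molecule. Total counts ran from 398786 to 1094544 in MPP4 mutant libraries and from 577629 to 1211250 in HSC mutant libraries. Levels are given in CPM, a gene's counts divided by the library's TMM-scaled size and multiplied by a constant that is the same for every library. The TMM-scaled size is the total count times a scaling factor of that library. A CPM value is therefore not the plain share of a library's counts. In MPP4 mutant 2 and MPP4 mutant 1 the CPM values were higher than that share. The labels carry ID numbers, and 3 of them occurred in both populations (MPP4 mutant 1 with HSC mutant 1, MPP4 mutant 3 with HSC mutant 3, and MPP4 mutant 4 with HSC mutant 2), whereas that of MPP4 mutant 2 occurred in no HSC mutant library. Batch A held MPP4 mutant 1 and HSC mutant 1, batch B held MPP4 mutant 2, and batch C held the rest. No label says that an ID number stands for an animal. The p-values therefore rest on library-to-library spread, part of which may be technical.

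Several libraries stood apart in transcripts of mature blood cells. Globins and other red cell effector genes added up to 240188 CPM in MPP4 mutant 2, against 238 to 492 CPM in the other MPP4 mutant libraries, and to 11930 CPM in HSC mutant 1, against 393 and 463 CPM in the other HSC mutant libraries. Neutrophil markers added up to 41981 CPM in MPP4 mutant 2 and to 1409 CPM in HSC mutant 1, and to at most 102 CPM elsewhere. B cell markers added up to 12873 CPM in MPP4 mutant 3, mostly immunoglobulin kappa (Igkc, 9139 CPM), compared with 645 to 966 CPM in the other MPP4 mutant libraries and 88.8 to 196 CPM in HSC mutant libraries. Other members of this list differed. Jchain stood at 480 CPM in MPP4 mutant 3, and Cd79b at 58.6 CPM in MPP4 mutant 1 and 27.1 to 29.6 CPM in HSC mutants. Cd79a, a component of the B cell receptor, had no count in any of the 7 libraries. Some of the results that involve these cell types are therefore also given without MPP4 mutant 2.

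**Figure D1:**
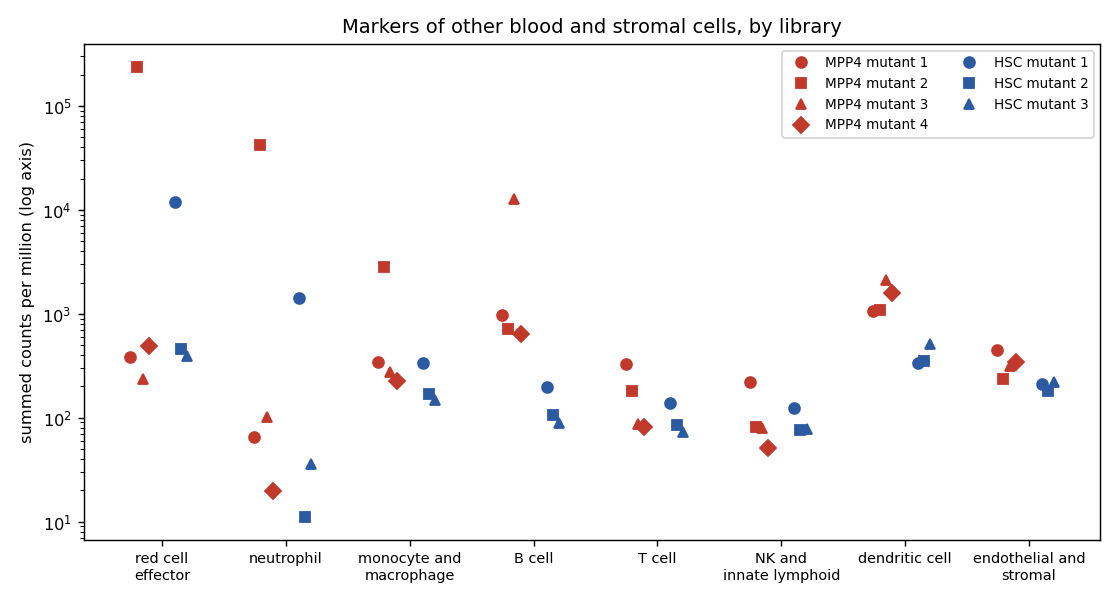
Summed level in CPM (log axis) of marker lists of other cell types, for each MPP4 mutant library (red, left) and each HSC mutant library (blue, right), with 1 symbol per library. MPP4 mutant 2 carried 240188 CPM of red cell and 41981 CPM of neutrophil transcripts, and MPP4 mutant 3 carried 12873 CPM of B cell transcripts.

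The labels were first checked against genes that define the 2 populations. Flt3 (chromosome 5, 147330741 to 147400489, GRCm38), whose product marks lymphoid-primed progenitors, stood at 439, 318, 623 and 537 CPM in MPP4 mutants 1 to 4, against 39.8, 12.7 and 19.7 CPM in HSC mutants 1 to 3. Slamf1 (chromosome 1, 171767127 to 171801184), which encodes the stem cell marker CD150, had 3 counts in all MPP4 mutant libraries together and 216 counts in the HSC mutant libraries, with 32.0, 103 and 93.8 CPM in HSC mutants 1 to 3. Procr, which encodes the protein C receptor found on stem cells, stood at 6.23, 13, 20.4 and 2.45 CPM in MPP4 mutants and at 72.6, 38.2 and 72.4 CPM in HSC mutants. Flt3, Slamf1 and Procr did not overlap between the populations, and each was higher in the population that it marks. Cd48 did overlap, at 76.6 to 274 CPM in MPP4 mutants and 6.58 to 81.2 CPM in HSC mutants. Its log2 difference of 1.84 ± 0.68 did not pass (SE; edgeR quasi-likelihood test, adjusted p = 0.24). With the ID number as a block it was 2.06 and passed (adjusted p = 3.1e-05). Flt3, Slamf1, Cd48 and Cd34 products are commonly used to sort these cells, so their differences check the labels and are not treated as findings.

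Dnmt1 transcript itself (chromosome 9, 20907209 to 20959888) was present in every library and overlapped between the populations, with 249, 231, 319 and 313 CPM in MPP4 mutants and 114, 304 and 294 CPM in HSC mutants. The log2 difference was 0.22 ± 0.36 (SE; edgeR quasi-likelihood test, adjusted p = 0.94), and 0.40 with the ID number as a block (adjusted p = 0.31). These counts measure transcript and do not check the activity of the altered protein.

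Across all genes, 299 of 9423 genes tested passed an adjusted p of 0.05, of which 188 (2.0% of those tested) were higher in MPP4 mutants than in HSC mutants and the rest (1.18%) lower, with a median log2 difference of -0.02. With the ID number as a block, which compares the populations within the 3 shared numbers, 581 genes (6.17%) were higher and 375 (3.98%) lower, and 294 of the 299 unblocked calls were among them. Leaving out MPP4 mutant 2 left 146 genes higher (1.55%) and 125 lower (1.33%), of which 226 were called before. Unless a fit is named, values below come from the unblocked test on all 7 libraries, as log2 differences of MPP4 minus HSC with their standard errors. Counts of called list members below are to be read beside these shares of all genes tested, which were greater with the block.

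**Figure D2:**
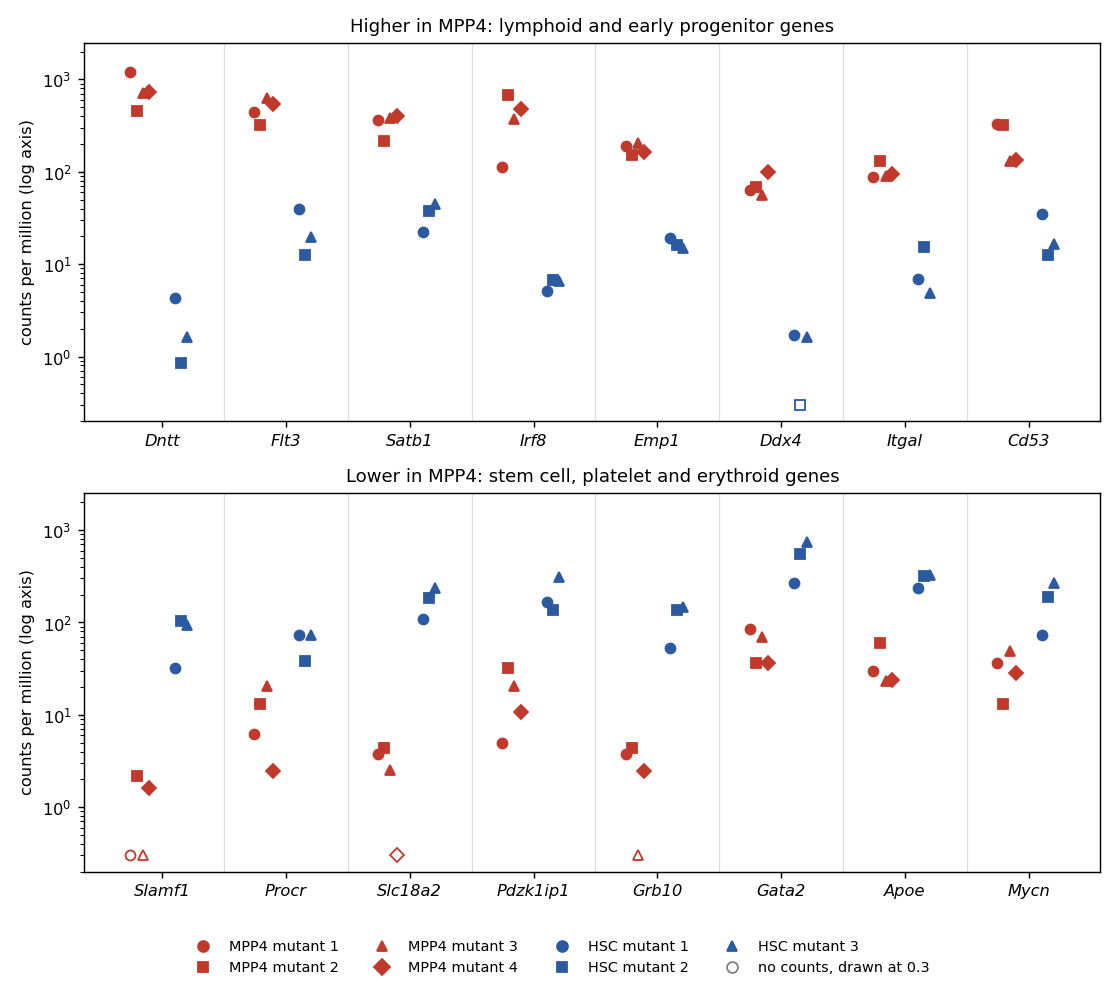
CPM (log axis) of 16 genes in each MPP4 mutant library (red, left of each gene) and each HSC mutant library (blue, right), with 1 symbol per library and open symbols where a library had no count. Genes were drawn from those whose populations lay in separate ranges, such as Dntt with at least 454 CPM in MPP4 mutants and at most 4.32 CPM in HSC mutants.

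Dntt and Satb1, genes of early lymphoid cells, were higher in MPP4 mutants. Dntt (chromosome 19, 41029275 to 41059525) stood at 1196, 454, 718 and 733 CPM in MPP4 mutants, against 4.32, 0.848 and 1.65 CPM in HSC mutants. Its log2 difference of 8.26 ± 0.62 had the smallest adjusted p of all named genes (9.8e-05), and the pooled counts were 343 times as high in MPP4 mutants (95% counting interval 166 to 854). Satb1 (chromosome 17, 51736187 to 51833290), a chromatin organiser of lymphoid progenitors, stood at 365, 214, 383 and 404 CPM in MPP4 mutants and at 22.5, 37.3 and 44.4 CPM in HSC mutants, a log2 difference of 3.30 ± 0.38 (adjusted p = 0.00091). All 4 MPP4 mutant libraries exceeded all 3 HSC mutant libraries for both genes. For 4 against 3 libraries the smallest 2-sided exact permutation p is 0.0571. The share of all genes with separate ranges is not given here. Separate ranges, here and elsewhere, are therefore a description.

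Of the list of lymphoid receptors and recombination genes, 25 of 37 members passed the expression filter, 10 were higher (Flt3, a sort marker, among them) and 0 lower in MPP4 mutants, and their median log2 difference was 1.95, beside -0.02 over all genes. With the ID block 19 were higher and 1 was lower (Ltb, the membrane-bound lymphotoxin subunit), beside 6.17% and 3.98% of all genes. Members that rose included Notch1 (2.41 ± 0.44), the receptor that directs T lineage choice, at 130, 130, 207 and 194 CPM in MPP4 mutants and 20.7, 17.8 and 57.6 CPM in HSC mutants. The Src family kinase gene Lck rose with an adjusted p of 0.0051, and the tetraspanin gene Cd53 rose by 3.38 ± 0.50. Notch1 and Lck were named after their values were seen. A gene counted in 1 population only can pass the filter through the population where it is high, so these counts describe the lists and are no test of them.

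Il7r, the receptor for interleukin 7 that early lymphoid cells need, did not reach the expression filter. It stood at 4.99, 0, 40.9 and 34.3 CPM in MPP4 mutants, and at 0, 0.848 and 0 CPM in HSC mutants. This was 62 counts against 1, a ratio of 63.4 with a 95% counting interval of 11 to 2543. The libraries overlapped, since MPP4 mutant 2 had no count. In control marrow the MPP4 libraries held 17.4, 63.8, 45.9 and 84.3 CPM and the HSC libraries none.

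Among 21 of 30 lymphoid transcription factors that passed the filter, 3 were higher in MPP4 mutants and 0 lower (9 and 0 with the ID block). Beside Satb1 these were Id2, an inhibitor of E proteins, at 26.2, 214, 105 and 92.3 CPM against 5.18, 3.39 and 6.58 CPM in HSC mutants (4.43 ± 0.69, adjusted p = 0.0058), and Nfil3, a regulator of innate lymphoid and dendritic lineages. Nfil3 stood at 44.9, 21.6, 2.55 and 17.2 CPM in MPP4 mutants, against 1.73, 1.70 and 1.65 CPM in HSC mutants, and its lowest MPP4 value lay just above the HSC range. The B cell factors Ebf1 and Pax5 and the T cell factors Tcf7 and Bcl11b, named after their values were seen, did not reach the filter. Ebf1 stood at 3.74, 13, 204 and 24.5 CPM in MPP4 mutants, highest in MPP4 mutant 3, against 1.73, 0 and 1.65 CPM in HSC mutants.

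Immunoglobulin mu (Ighm) stood at 612, 435, 2631 and 432 CPM in MPP4 mutants, against 17.3, 0.848 and 1.65 CPM in HSC mutants. Its log2 difference was 7.14 ± 1.22 (adjusted p = 0.017), and 6.96 with the ID block, where the call was lost (adjusted p = 0.12). The highest value belonged to MPP4 mutant 3, the library with most B cell transcripts. Without MPP4 mutant 2 the difference was 7.37 (adjusted p = 0.0061). The part of B cells in this difference was not tested. Ighm was 1 of only 4 B cell markers of 20 that passed the filter. In control marrow HSC control 1 held 14493 CPM of Ighm and the other HSC control libraries none, and the control difference was -3.02 (adjusted p = 0.71).

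Some myeloid and dendritic genes were higher in MPP4 mutants. Irf8, a transcription factor of dendritic cells and monocytes, stood at 113, 681, 375 and 474 CPM in MPP4 mutants and at 5.18, 6.78 and 6.58 CPM in HSC mutants (6.02 ± 0.64, adjusted p = 0.0008). Of myeloid transcription factors and receptors, 24 of 32 passed the filter, 7 were higher and 0 lower, with a median of 1.5 (0.93 without MPP4 mutant 2, where 6 were higher). Cebpa, which drives the granulocyte and monocyte programme, stood at 33.7, 23.8, 25.5 and 28.6 CPM in MPP4 mutants, against 5.18, 5.09 and 0 CPM in HSC mutants (2.80 ± 0.56, adjusted p = 0.017). It was named after its values were seen, and its populations did not overlap.

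The chemokine gene Ccl3 had 158 counts in MPP4 mutants and 3 in HSC mutants, a ratio of 53.8 (95% counting interval 18.1 to 264; adjusted p = 0.0012). Wfdc17, a secreted protein of myeloid cells, had 178 counts against 3, a ratio of 60.7 (20.4 to 297; adjusted p = 0.0021). Granule genes gave another picture. Of these, 11 of 20 passed the filter and only the protease inhibitor gene Serpinb1a was higher (2.21 ± 0.52, adjusted p = 0.041). Leaving out MPP4 mutant 2 ended that call (adjusted p = 0.086) and moved the median of the list to 0.27, against 1.33 with it. That library held 41981 CPM of neutrophil markers, and their part in the granule genes was not tested. Mpo, the myeloperoxidase of primary granules, stood at 916, 346, 534 and 229 CPM in MPP4 mutants and at 590, 0.848 and 3.29 CPM in HSC mutants. Its populations overlapped through HSC mutant 1, and the difference of 1.33 ± 1.79 did not pass (adjusted p = 0.92). The ID block gave 3.37, which did not pass either (adjusted p = 0.55). Leaving out HSC mutant 1 raised the difference to 8.04, and Mpo was then called (adjusted p = 0.00038). The size of that value rests on 1 and 2 Mpo counts in HSC mutants 2 and 3. The part of neutrophil transcripts in the Mpo level of HSC mutant 1 was not tested.

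Most MHC class II genes, which present antigen on dendritic cells, B cells and macrophages, were higher in MPP4 mutants. All 13 passed the filter, 8 were higher and 0 lower, with a median of 3.86 (3.04 with the ID block). Without MPP4 mutant 2 only 10 of them passed the filter, with a median of 3.22 over those 10. H2-Eb1 stood at 177, 2420, 805 and 863 CPM in MPP4 mutants and at 39.8, 21.2 and 21.4 CPM in HSC mutants (5.25 ± 0.85, adjusted p = 0.0082), but did not pass with the ID block (4.15, adjusted p = 0.22). Cd74, the invariant chain, stood at 97.3, 1808, 685 and 788 CPM in MPP4 mutants, against 16.4, 1.70 and 8.23 CPM in HSC mutants (6.55 ± 1.16, adjusted p = 0.02), and was likewise lost with the block (adjusted p = 0.27). H2-Ob, a class II gene that B cells and dendritic cells express, stood at 19.9, 21.6, 38.3 and 45.7 CPM in MPP4 mutants. It stood at 1.73, 2.54 and 1.65 CPM in HSC mutants, and kept its call with the block (adjusted p = 2.3e-05).

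Genes of type 1 conventional dendritic cells were high in the same libraries. Xcr1, their chemokine receptor, had no count in MPP4 mutant 1 and stood at 97.2 to 205 CPM in the other MPP4 mutant libraries, against 0, 0.848 and 0 CPM in HSC mutants. Clec9a, their receptor for dead cells, stood at 1.25, 90.8, 56.2 and 49.8 CPM in MPP4 mutants and had no count in HSC mutants. MPP4 mutant 1, the batch A library, was the lowest MPP4 mutant library in Irf8, H2-Eb1, Cd74, Clec9a and Xcr1 alike. Clec9a and Xcr1, named after their values were seen, did not pass the unblocked test (adjusted p = 0.13 and 0.12) and passed with the block (9.6e-06 and 3.3e-07). Of the dendritic cell list, 8 of 16 passed the filter, and 2 were higher (the sort marker Flt3 and the integrin gene Itgax), or 7 with the block. Without MPP4 mutant 2 only 4 passed the filter and only Flt3 was called, and the median was 1.20, against 3.97 with that library. The summed level of this list was 1075 to 2097 CPM in MPP4 mutant libraries and 334 to 508 CPM in HSC mutant libraries. The part of dendritic cells in the class II difference was not tested, and in bulk libraries more cells of a type and more RNA per cell cannot be told apart.

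Some genes of stem cells were lower in MPP4 mutants. Of surface and signalling genes of stem cells, 26 of 39 passed the filter, 12 were lower (the sort marker Slamf1 among them) and 1 higher in MPP4 mutants, with a median of -1.52. Under the block 19 were lower and 1 higher. Pdzk1ip1, which encodes a small membrane protein, stood at 4.99, 32.4, 20.4 and 10.6 CPM in MPP4 mutants, against 165, 135 and 311 CPM in HSC mutants (-3.69 ± 0.52, adjusted p = 0.0027). The exception was Vldlr, a lipoprotein receptor, at 36.2, 49.7, 40.9 and 43.3 CPM in MPP4 mutants and 12.1, 21.2 and 13.2 CPM in HSC mutants. Its rise of 1.41 ± 0.35 was near the threshold (adjusted p = 0.046) and was lost without MPP4 mutant 2 (adjusted p = 0.093).

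Some stem cell transcription factors fell too. Of 25, 20 passed the filter and 5 were lower (Gata2, Tal1, Mllt3, Gfi1b and Nkx2-3), with a median of -1.0. Without MPP4 mutant 2 only 3 were lower, and the calls of Gfi1b (adjusted p = 0.091) and Nkx2-3 (adjusted p = 0.061) were lost. Under the block 10 were lower, and 1, Hoxa9, was higher by 0.90. Gata2 (chromosome 6, 88193891 to 88207032), a factor of stem cells and of erythroid and mast cell precursors, stood at 84.8, 36.8, 69.0 and 36.8 CPM in MPP4 mutants and at 264, 544 and 745 CPM in HSC mutants (-3.20 ± 0.43, adjusted p = 0.0021). Tal1, the haematopoietic helix-loop-helix factor, stood at 32.4, 108, 53.6 and 46.6 CPM, against 171, 238 and 304 CPM in HSC mutants (-2.01 ± 0.40, adjusted p = 0.016). Mllt3, a reader of histone acylation that maintains stem cells, fell by 1.77 ± 0.35 on the log2 scale (adjusted p = 0.017).

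The stem cell factors Hlf and Mecom did not pass the unblocked test. Hlf stood at 308, 283, 922 and 399 CPM in MPP4 mutants and at 293, 490 and 658 CPM in HSC mutants, a log2 difference of -0.02 ± 0.45 (adjusted p = 1). Mecom stood at 62.3, 60.6, 319 and 149 CPM in MPP4 mutants and at 89.9, 348 and 472 CPM in HSC mutants (-1.06 ± 0.67, adjusted p = 0.67). Both overlapped between the populations. In each shared ID number Mecom was lower in MPP4, and the block gave -0.81 with an adjusted p of 0.012. For Hlf the block gave 0.07 (adjusted p = 0.9).

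**Figure D3:**
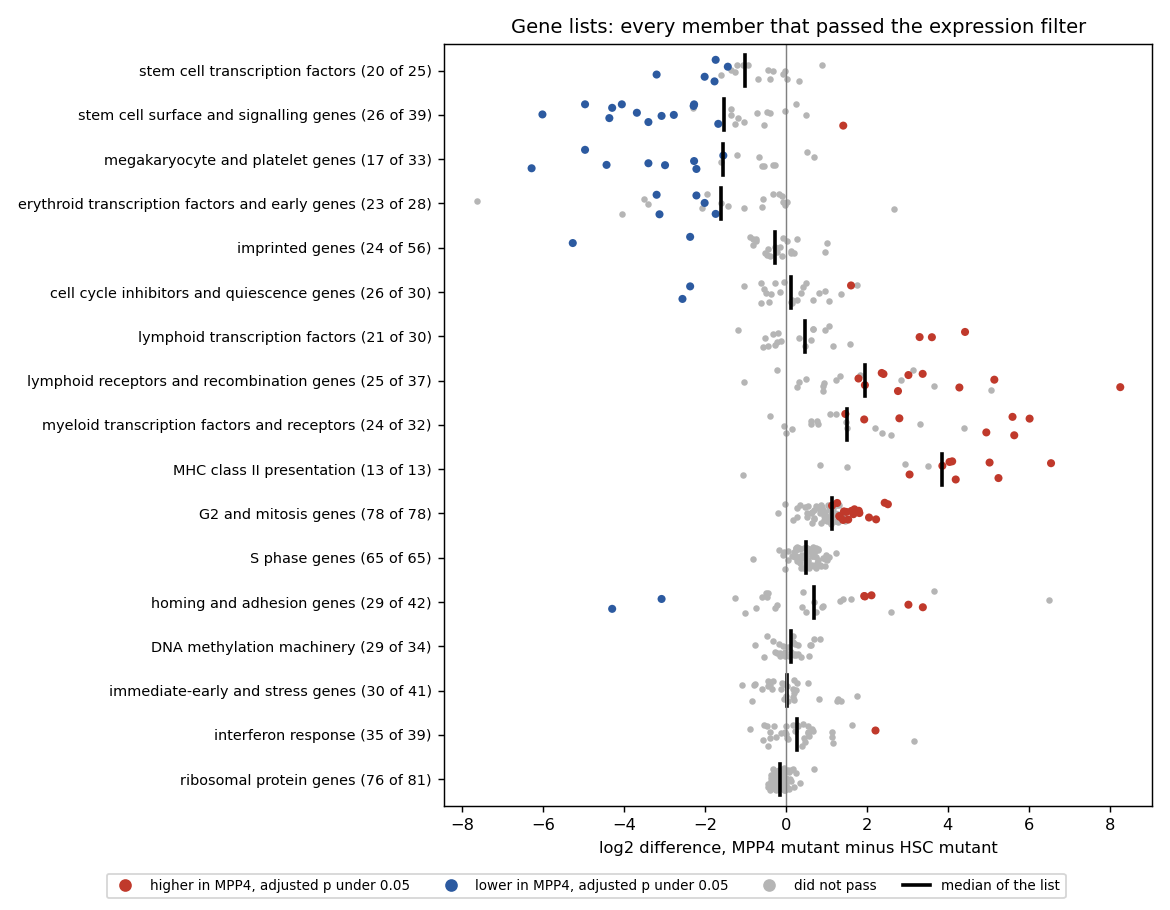
Log2 difference of MPP4 mutant minus HSC mutant for each gene that passed the expression filter, by list, with the number that passed of the number in the list, and with the median as a black bar. Red and blue points passed an adjusted p of 0.05 (higher and lower in MPP4 mutants), and the platelet, erythroid and stem cell lists lay mostly left of 0, with medians between -1.60 and -1.0.

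Some platelet genes were lower in MPP4 mutants. Stem cells share many genes with the megakaryocyte lineage, which makes platelets. Of this list, 17 of 33 passed the filter, 8 were lower and 0 higher (12 and 0 with the ID block), with a median of -1.55. Gp5, a subunit of the platelet receptor for von Willebrand factor, had 1 count in MPP4 mutants and 104 counts in HSC mutants, with 25.9, 33.9 and 55.9 CPM in HSC mutants 1 to 3. The ratio of MPP4 to HSC was 0.00983 (95% counting interval 0.000247 to 0.056; adjusted p = 0.00091). Itga2b, the fibrinogen receptor subunit CD41, stood at 4.99, 2.16, 0 and 1.63 CPM in MPP4 mutants, against 25.9, 149 and 62.5 CPM in HSC mutants (-4.97 ± 0.72, adjusted p = 0.0036). Zfpm1, which encodes the GATA cofactor FOG1, stood at 21.2, 41.1, 17.9 and 23.7 CPM in MPP4 mutants, against 120, 137 and 98.7 CPM in HSC mutants (-2.22 ± 0.33, adjusted p = 0.004).

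For erythroid transcription factors and early genes the result depended on MPP4 mutant 2. Of 28, 23 passed the filter, and 5 were lower and 0 higher, with a median of -1.60. In the blocked fit 16 were lower, and without MPP4 mutant 2 the unblocked test called 7. Gata1, the master factor of red cell and platelet precursors, stood at 2.49, 30.3, 0 and 0 CPM in MPP4 mutants and at 226, 72.1 and 28 CPM in HSC mutants. The populations overlapped through MPP4 mutant 2, and the difference of -4.04 ± 1.31 did not pass (adjusted p = 0.21), whereas it was -6.85 without that library (adjusted p = 0.0068) and -6.93 with the block (adjusted p = 4.5e-08). Apoe, apolipoprotein E, stood at 29.9, 60.6, 23 and 23.7 CPM in MPP4 mutants and at 236, 322 and 322 CPM in HSC mutants (-3.13 ± 0.37, adjusted p = 0.0012).

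Globins and other red cell effector genes had no call in either direction in the edgeR test (12 of 19 passed the filter, 0 at an unadjusted p of 0.05) and none with DESeq2. Their median was 2.0 with all libraries, -1.57 without MPP4 mutant 2 (over 11 genes tested) and -1.48 with the ID block. The sign of this median thus changed when MPP4 mutant 2 was left out. With the block 4 were lower, among them Hemgn, a nuclear factor of red cell precursors. HSC mutant 1 carried 11930 CPM of this list, including the globins Hba-a1, Hbb-bs and Hba-a2, and its part in the Gata1 difference was not tested. In batch C, which does not hold that library, the log2 difference of Gata1 was -4.50 (mean log2 CPM with a prior count of 2). The MPP4 mutant libraries of batch C had no Gata1 count, so the prior count limits the size of this value. The edgeR test in batch C alone gave -8.48 (adjusted p = 0.00031), a size that rests on the same absence of counts.

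Some G2 and mitosis genes were higher in MPP4 mutants. Of the list of G2 and mitosis genes, all 78 passed the filter, 17 were higher and 0 lower, beside 2.0% and 1.18% of all genes tested. A positive difference was seen in 76 of the 78 (median 1.13), beside 4489 of the 9423 genes tested. In the blocked fit 62 were higher, beside 6.17% of all genes. Summed over the list, the level was 14490, 12962, 14717 and 13877 CPM in MPP4 mutants 1 to 4 and 7279, 7720 and 6472 CPM in HSC mutants 1 to 3, which is 14011 ± 785 CPM (SD, n = 4) against 7157 ± 633 CPM (SD, n = 3). The lowest MPP4 mutant sum lay above the highest HSC mutant sum.

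Kif23, a kinesin of the central spindle, stood at 133, 214, 245 and 183 CPM in MPP4 mutants and at 20.7, 43.2 and 42.8 CPM in HSC mutants (2.44 ± 0.37, adjusted p = 0.0042). Ect2, which triggers the contractile ring at cell division, stood at 77.3, 47.6, 97.1 and 68.6 CPM, against 17.3, 16.1 and 11.5 CPM in HSC mutants (2.23 ± 0.36, adjusted p = 0.0058). Nusap1, a spindle-associated protein, stood at 192, 192, 235 and 195 CPM, against 24.2, 67.8 and 54.3 CPM in HSC mutants (2.05 ± 0.36, adjusted p = 0.0099). Mki67, the common proliferation marker, stood at 354, 865, 690 and 730 CPM in MPP4 mutants and at 181, 414 and 199 CPM in HSC mutants. Its populations overlapped, and it passed with the ID block (1.16, adjusted p = 0.00067) but not without it (1.31 ± 0.42, adjusted p = 0.14).

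S phase genes had a lower median. All 65 passed the filter, 60 had a positive difference and the median was 0.50, but edgeR called 0 in either direction, with 12 at an unadjusted p of 0.05, and DESeq2 called 0. With the ID block 10 were higher, beside 6.17% of all genes. Among the 10 were the replication clamp Pcna and the ribonucleotide reductase subunit Rrm2. The list summed to 7945, 7759, 7159 and 7303 CPM in MPP4 mutants and to 5741, 5243 and 4713 CPM in HSC mutants, which did not overlap.

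The same list in control marrow summed to 6486 to 8120 CPM in MPP4 control libraries and to 2963 to 4711 CPM in HSC control libraries, and 24 of 64 tested genes were higher in MPP4 controls (beside 3.41% of all genes tested there), with a median of 0.96. In the test of the difference between the contrasts 0 of the 65 passed in edgeR (2 at an unadjusted p of 0.05) and DESeq2 called none of any list. The fitted value was lower in mutants for 62 of the 65, beside 5487 of 10537 over all genes tested. Genes of 1 list share libraries and are not independent, so this count is a description. The lowest HSC mutant sum (4713 CPM) was level with the highest HSC control sum (4711 CPM), while the MPP4 ranges of the genotypes overlapped. For G2 and mitosis genes the medians of both genotypes were close (1.13 in mutants and 1.15 in controls), and 38 of 78 members had a greater difference in mutants. The G2 and mitosis sums were 7819 to 11680 CPM in MPP4 control libraries and 4061 to 5939 CPM in HSC control libraries, so that in each population every mutant library lay above every control library.

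**Figure D4:**
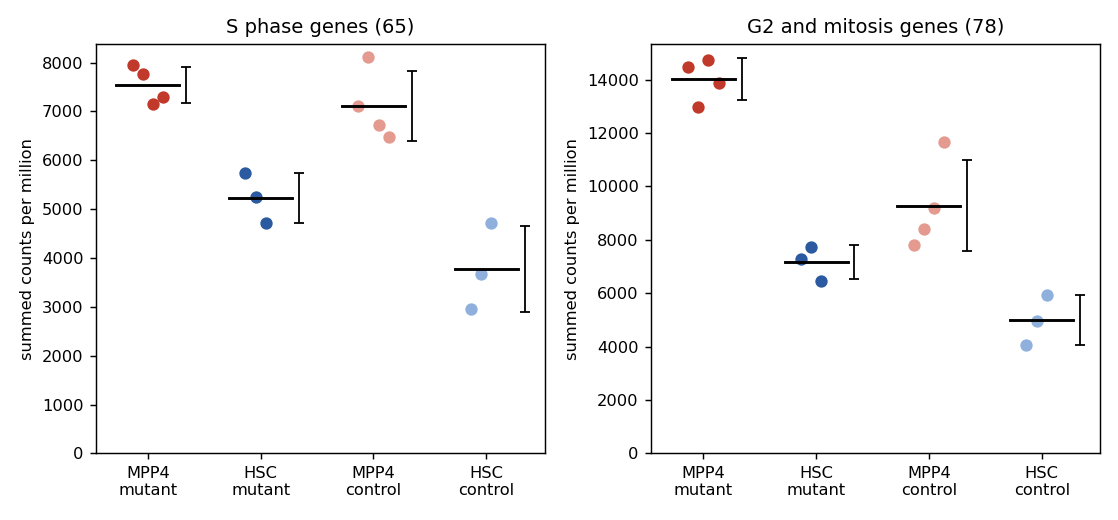
Summed CPM of 65 S phase genes (left) and 78 G2 and mitosis genes (right) in each library of MPP4 mutant, HSC mutant, MPP4 control and HSC control marrow, with the mean as a bar and the SD beside it. HSC mutant libraries held 4713 to 5741 CPM of S phase transcripts, against 2963 to 4711 CPM in HSC control libraries.

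Promoters of the named genes with the smallest adjusted p among the S phase, G2 and mitosis and erythroid lists are shown because the calls of the G2 and mitosis and of the erythroid list all had 1 direction. The windows run from 250 bases before to 50 bases after the start site and were taken from RefSeq (GRCm38.p6), 5′ to 3′ on the strand of the gene. Letters of a searched motif are in capitals. The motifs were the cell cycle homology region CHR (TTTGAA), through which mitotic genes are repressed outside division, an E2F site (TTTCCCGC or TTTGGCGC) and a GATA site (AGATAA), each on both strands.
Kif23, chr9:61946750-61947049, minus strand: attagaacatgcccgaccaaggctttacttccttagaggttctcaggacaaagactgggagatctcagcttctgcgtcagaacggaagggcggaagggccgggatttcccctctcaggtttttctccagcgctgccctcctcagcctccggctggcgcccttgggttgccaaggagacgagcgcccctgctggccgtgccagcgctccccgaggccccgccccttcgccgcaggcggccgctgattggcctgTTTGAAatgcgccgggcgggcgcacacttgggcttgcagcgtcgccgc
Apoe, chr7:19699139-19699438, minus strand: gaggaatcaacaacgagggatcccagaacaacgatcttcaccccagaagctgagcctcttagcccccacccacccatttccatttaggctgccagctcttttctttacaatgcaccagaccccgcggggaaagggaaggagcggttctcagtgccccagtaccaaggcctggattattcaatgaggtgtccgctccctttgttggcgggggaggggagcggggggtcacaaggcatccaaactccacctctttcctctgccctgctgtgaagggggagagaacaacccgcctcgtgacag
Gata2, chr6:88193641-88193940, plus strand: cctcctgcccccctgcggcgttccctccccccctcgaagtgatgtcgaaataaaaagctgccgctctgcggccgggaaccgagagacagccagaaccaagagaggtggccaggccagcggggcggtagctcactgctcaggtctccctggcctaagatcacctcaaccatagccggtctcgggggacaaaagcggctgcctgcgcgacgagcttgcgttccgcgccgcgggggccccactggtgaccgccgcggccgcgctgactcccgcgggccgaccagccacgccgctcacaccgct
Zfpm1, chr8:122281891-122282190, plus strand: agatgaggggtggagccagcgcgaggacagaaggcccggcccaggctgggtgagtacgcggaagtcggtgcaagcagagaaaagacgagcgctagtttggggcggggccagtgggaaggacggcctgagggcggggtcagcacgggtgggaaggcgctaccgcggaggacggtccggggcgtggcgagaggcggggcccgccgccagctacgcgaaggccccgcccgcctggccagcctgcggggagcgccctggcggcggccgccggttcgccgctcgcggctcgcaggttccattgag

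Kif23 held 1 CHR match, at position +3 counted from the start site as +1, and the 3 other windows held none of these letters. Of the G2 and mitosis list, 63 of 78 genes (80.8%) had a promoter in the table, and 41 of them (65.1%) held a CHR match, beside 4893 of 27025 promoters in the table (18.1%). For E2F the share in this list was 6.35% (4 genes), beside 1.63% of all promoters. Over the 9423 genes tested, of which 76.8% had a promoter in the table, the shares were 11.7% for CHR and 3.55% for E2F. Only 75.4% of the S phase genes and 75.0% of the erythroid genes had a promoter, below the 80% needed, so the search in these lists was void. A match is a description of letters and not evidence of a bound factor.

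Few genes that hold cells at rest were called in the unblocked test. Of 26 tested of 30 cell cycle inhibitors and quiescence genes, 2 were lower and 1 higher, beside 1.18% and 2.0% of all genes tested. The block gave 3 lower and 6 higher, beside 3.98% and 6.17% of all genes. Cdkn1c, the inhibitor p57 that keeps stem cells out of the cycle, stood at 18.7, 6.49, 10.2 and 6.53 CPM in MPP4 mutants and at 36.3, 45.8 and 85.5 CPM in HSC mutants (-2.37 ± 0.46, adjusted p = 0.014). Socs2, a brake on cytokine signalling, fell by 2.56 ± 0.39 on the log2 scale (adjusted p = 0.0043). Ccng2, an atypical cyclin of resting cells, was higher, at 57.4, 93.0, 58.7 and 80.0 CPM, against 19.9, 22 and 29.6 CPM in HSC mutants (1.61 ± 0.33, adjusted p = 0.02).

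A pair of Myc family members changed in opposite directions. Mycn stood at 36.2, 13, 48.5 and 28.6 CPM in MPP4 mutants and at 72.6, 189 and 267 CPM in HSC mutants (-2.49 ± 0.47, adjusted p = 0.013). Mycl had 57 counts in MPP4 mutants (2.49, 23.8, 25.5 and 27.8 CPM) and none in HSC mutants. Taking 3 counts over the HSC group as the floor, it was at least 19.4-fold higher in MPP4 mutants (adjusted p = 0.019). The other 37 tested Myc and nucleolar genes had no call, and the median of the list was -0.22.

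Homing and adhesion genes changed in both directions. Of 29 tested of 42 homing and adhesion genes, 5 were higher (the sort marker Cd34 among them) and 2 lower (12 and 3 with the ID block). Over all genes the shares were 2.0% and 1.18%, and 6.17% and 3.98% with the block. Itgal, the integrin LFA-1 alpha chain of lymphocytes, stood at 88.5, 132, 89.4 and 94.7 CPM in MPP4 mutants and at 6.91, 15.3 and 4.94 CPM in HSC mutants (3.38 ± 0.41, adjusted p = 0.0014). Emb, embigin, stood at 479, 357, 271 and 301 CPM, against 77.8, 78.0 and 120 CPM in HSC mutants (1.93 ± 0.33, adjusted p = 0.0071). Esam and Jam3, junction molecules that stem cells share with endothelium, were lower. Esam stood at 0, 2.16, 7.66 and 1.63 CPM in MPP4 mutants, against 23.3, 40.7 and 75.7 CPM in HSC mutants (-4.30 ± 0.70, adjusted p = 0.0063). Of 5 tested members of the Gimap family of 8, GTPases of lymphocytes, none rose, and Gimap8 was lower (-3.25 ± 0.59, adjusted p = 0.011).

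Further genes were named by their adjusted p among genes whose populations did not overlap, so that their separate ranges follow from the choice. Emp1, an epithelial membrane protein, stood at 191, 151, 207 and 163 CPM in MPP4 mutants and at 19, 16.1 and 14.8 CPM in HSC mutants (3.39 ± 0.32, adjusted p = 0.00047). Sh2d5, an adaptor protein gene, stood at 274, 179, 227 and 341 CPM, against 43.2, 43.2 and 32.9 CPM in HSC mutants (2.66 ± 0.33, adjusted p = 0.0014). Its span overlaps that of Kif17 on the same strand, and reads of overlapping genes may not have been told apart. BC035044, which overlaps Clec2i, had 317 counts in MPP4 mutants and 5 in HSC mutants, Cd244, a receptor of the signalling lymphocyte family, had 92 and 4, and the potassium channel subunit gene Kcng1 had 100 and 2.

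Lower genes included Slc18a2, the vesicular monoamine transporter, at 3.74, 4.33, 2.55 and 0 CPM in MPP4 mutants, against 108, 182 and 234 CPM in HSC mutants (-6.22 ± 0.59, adjusted p = 0.00047). Myh10, a nonmuscle myosin heavy chain, stood at 2.49, 6.49, 0 and 4.08 CPM, against 71.7, 66.1 and 34.5 CPM in HSC mutants (-4.04 ± 0.52, adjusted p = 0.0016). The growth factor gene Gdf3 and the proteoglycan gene Bgn had 2 counts each in MPP4 mutants. Gdf3 stood at 74.3, 37.3 and 24.7 CPM in HSC mutants, and Bgn at 44.1, 28 and 44.4 CPM. Trim47, Plxdc2 and Sdsl had 5, 9 and 14 counts in MPP4 mutants, against 183, 178 and 265 counts in HSC mutants. Trim47 overlaps Trim65 on the same strand.

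Imprinted and germline genes, classes that depend on DNA methylation, were read beside the 2.0% of all genes that were higher and the 1.18% that were lower. With the block these shares were 6.17% and 3.98%. Of 56 imprinted genes, expressed from the allele of 1 parent, 24 passed the filter and 2 were lower, Cdkn1c and Grb10 (2 lower and 1 higher with the block). Grb10 (chromosome 11, 11930508 to 12038683), an adaptor that restrains growth factor signalling, stood at 3.74, 4.33, 0 and 2.45 CPM in MPP4 mutants and at 52.7, 137 and 148 CPM in HSC mutants (-5.27 ± 0.55, adjusted p = 0.0008). In controls it stood at 5.72 to 12 CPM in MPP4 libraries and at 135 to 157 CPM in HSC libraries.

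Of 37 germline genes that methylation keeps silent, 8 passed the filter and 1 was higher, Ddx4, the germ cell RNA helicase also known as Vasa. Ddx4 (chromosome 13, 112598333 to 112652475) stood at 63.6, 69.2, 56.2 and 100 CPM in MPP4 mutants and at 1.73, 0 and 1.65 CPM in HSC mutants, which is 228 counts against 3 and a ratio of 77.7 (95% counting interval 26.3 to 380; adjusted p = 0.00054). Wild-type marrow showed 51.1, 44.4, 41.2 and 40.2 CPM in MPP4 controls and 3.26, 0.907 and 0 CPM in HSC controls. The DNA methylation machinery (29 of 34 tested, median 0.13) had 0 calls in edgeR, 0 at an unadjusted p of 0.05 and 0 with DESeq2. With the ID block 3 were higher (Hells, Mbd4 and Pcna) and 1 lower (Gadd45a), beside 6.17% and 3.98% of all genes tested.

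In the other lists the unblocked test gave at most 1 call in each direction. Interferon response genes had 1 of 35 tested, Ifi27l2a (2.20 ± 0.48, adjusted p = 0.027), and immediate-early and stress genes 0 of 30, with 2 at an unadjusted p of 0.05 and 1 called by DESeq2. Also without a call in edgeR were MHC class I genes (23 tested, 0 at an unadjusted p of 0.05), glycolysis and hypoxia genes (27 tested, 7), p53 targets and apoptosis regulators (24 tested, 5), Hoxa and Hoxb genes with their cofactors (9 tested, 3), ribosomal protein genes (76 tested, 0), nuclear respiratory chain genes (91 tested, 3) and mitochondrial transcripts (11 tested, 0). DESeq2 called 1 glycolysis and hypoxia gene and 0 in the other 6 of these lists. More were called with the ID block, where 6.17% of all genes were higher and 3.98% lower. It called 4 interferon response genes higher and 2 lower, 2 immediate-early and stress genes in each direction, and 2 glycolysis and hypoxia genes higher and 3 lower. It also called 3 p53 targets and apoptosis regulators and 1 MHC class I gene higher, 1 Hoxa and Hoxb gene higher and 2 lower, and 1 nuclear respiratory chain gene higher and 2 lower. Ribosomal protein genes and mitochondrial transcripts had 0 calls with the block, and 2 and 1 at an unadjusted p of 0.05. T cell markers (3 of 15 tested) and neutrophil markers (2 of 16) had 0 at an unadjusted p of 0.05 in edgeR, and monocyte and macrophage markers (5 of 18) had 2. DESeq2 called 0, 0 and 2 of these, and the block 1, 0 and 2, all higher. No mast cell, basophil or eosinophil marker reached the filter. The innate lymphoid factor Rora was lower (-1.68 ± 0.40, adjusted p = 0.041), and of 4 tested endothelial and stromal markers Egfl7 was higher (1.69 ± 0.35, adjusted p = 0.02) and Bgn lower. Egfl7 overlaps Agpat2 on the other strand.

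The stem-to-progenitor differences of mutant marrow were then set beside those of control marrow, which share no library with them. Between MPP4 control and HSC control libraries, 342 of 10037 genes (3.41%) were higher and 278 (2.77%) lower. Control libraries also carried transcripts of mature blood cells. MPP4 control 4 held 45521 CPM of red cell effector genes, 5551 CPM of neutrophil markers and 3888 CPM of B cell markers. HSC control 1 held 38287 CPM of B cell markers. The part of these transcripts in the control contrast, and in its comparison with the mutant contrast, was not tested. Of the 299 genes called in mutants, 289 were tested in controls, 287 had the same sign there, and 211 were also called, all with the same sign. These were 70.6% of the mutant calls and 34% of the control calls. Across 9254 genes tested in both, the log2 differences correlated with a Pearson r of 0.781 and a Spearman rho of 0.586, a description across genes that share libraries and depth and are not independent.

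**Figure D5:**
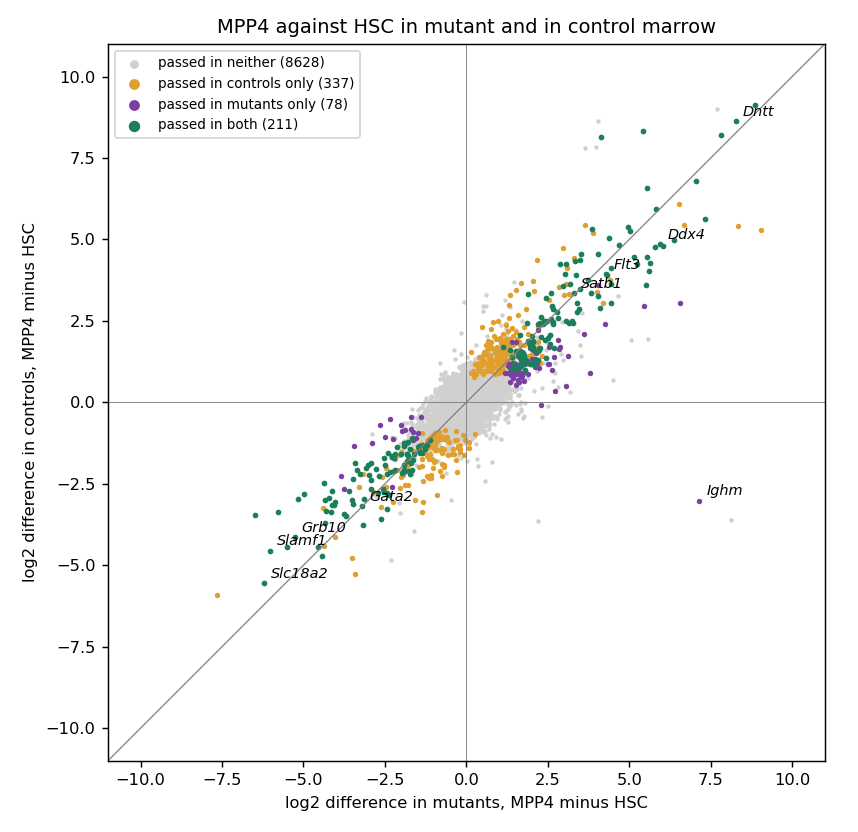
Log2 difference of MPP4 minus HSC in mutant marrow (horizontal) and in control marrow (vertical) for 9254 genes tested in both, coloured by which contrast passed an adjusted p of 0.05, with the line of equal differences. The 211 genes that passed in both lay in the same direction, and Ighm lay far off the line.

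The difference between the contrasts was itself tested in a model over the 14 MPP4 and HSC libraries. No gene passed (0 of 10537, 0%), with 1.21% of genes at an unadjusted p of 0.05 in edgeR, and DESeq2 called 0 with 113 genes at that level. In the blocked fit edgeR called 0, with 365 at an unadjusted p of 0.05 and a smallest adjusted p of 0.0586. The 78 genes called in mutants alone and the 337 called in controls alone are thus not shown to differ between the genotypes, and a p that misses the threshold does not show that they are alike.

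The 3 genes with the smallest p, none of which passed (adjusted p = 1), were these. Laptm4b, a lysosomal membrane protein gene, stood at 86.0, 36.8, 46.0 and 44.9 CPM in MPP4 mutants and at 26.8, 17.0 and 23 CPM in HSC mutants, against 40.9, 45.3, 35 and 28.1 CPM in MPP4 controls and 42.3, 45.3 and 45.5 CPM in HSC controls. Its difference of log2 differences was 1.48 ± 0.45 (unadjusted p = 0.0039). Uchl1, a deubiquitinase gene of neurons, stood at 10.8 to 23 CPM in MPP4 mutants and 2.59 to 3.39 CPM in HSC mutants, against 6.61 to 12 CPM in MPP4 controls and 6.51 to 10.7 CPM in HSC controls (2.37 ± 0.73, unadjusted p = 0.0042). Zfp53, a zinc finger gene, had no count in HSC controls and 12 counts in HSC mutants, of which HSC mutant 1 held 8.64 CPM (unadjusted p = 0.0056). Among genes named above, Trim47, Gdf3 and Itga2b had unadjusted p-values of 0.0098, 0.039 and 0.024 for a deeper fall in mutants, and none passed the adjustment. This comparison of the 3 was chosen after their values were seen.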

How the data were processed

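Libraries were made by CEL-Seq2 from lineage-negative marrow cells sorted into lysis buffer, per the labels' protocols. The deposited tables hold estimated counts (expected counts) for 29717 gene symbols per library: all 1557 large values below the ceiling lay on the grid of a correction for collisions of molecular tags, a grid that covers 62% of whole numbers. The ceiling of 36909 was reached by 2 values of the mutant libraries used here, Hba-a1 in MPP4 mutant 2 and mt-Rnr2 in HSC mutant 2. The red cell sum of MPP4 mutant 2, which includes Hba-a1, may therefore be too low. The submitters' processing notes name mm10, R 3.4.0 and DESeq2. Aligner, counter and strand setting: not given in the sources used here. Deposited values were whole and needed no rounding.

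The main test was edgeR 4.0.16 in R 4.3.3 (TMM scaling, default expression filter with a minimum count of 10, robust quasi-likelihood fit of population) on 7 libraries, with Benjamini-Hochberg adjustment over all genes tested. DESeq2 1.42.0, other scalings, other filters, a batch term, all 18 libraries and left-out libraries were alternatives. The control contrast used 7 libraries, the difference between contrasts 14. Counting intervals use pooled counts scaled by TMM library sizes and cover counting error only. Every pair of replicates differed by more than sampling noise. In pairs of mutant libraries that share an ID number, as written in the labels' descriptions, deviations from the group means correlated at 0.414, 0.404 and 0.461. Mutant pairs with different numbers ran from -0.481 to 0.204. In controls a pair with the same number (0.133) lay below a pair with different numbers (0.173). The number was used as a block, but in batch A the shared number and the batch cannot be told apart. MPP4 mutant 2 has no partner and does not inform the blocked fit.

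Named genes were 14 fixed genes, up to 12 per direction with the smallest adjusted p, no overlap and 1 sign within both shared batches, up to 3 called members per list with up to 2 against its majority, and the 3 genes with the smallest interaction p. The comparison and the 36 gene lists were chosen with earlier results of these data known. Gene spans are from GENCODE M21 (GRCm38), which has the coordinates of mm10. Scripts were tested on simulated counts. Results for some genes are not reported here.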

Additional observations from a re-analysis of the deposited data

Results flagged for a closer look

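Among 104 groups of 4 MPP4 mutant values examined, 16 had 1 library whose gap to the nearest other exceeded Dixon's 95% limit. That limit assumes normal values and was applied to CPM, and some lists share genes. The count of 16 is therefore a description and cannot be set against a chance rate. MPP4 mutant 2 was the outlying library in 8 of them. Its Gata1 level was 30.3 CPM (others at most 2.49), its Itgal level 132 CPM (others 88.5 to 94.7) and its Socs2 level 21.6 CPM (others 46.6 to 49.9). Its summed levels were 4061 CPM for myeloid transcription factors and receptors, 5703 CPM for erythroid transcription factors and early genes, 240188 CPM for red cell effector genes, 41981 CPM for neutrophil markers and 2816 CPM for monocyte and macrophage markers.

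MPP4 mutant 3 stood apart in Ighm (2631 CPM, others 432 to 612), in the sum of B cell markers (12873 CPM), in Nusap1 (235 CPM, others 192 to 195) and in the sum of cell cycle inhibitors and quiescence genes (4508 CPM, others 3177 to 3343). MPP4 mutant 1 stood apart in Mycl (2.49 CPM, others 23.8 to 27.8) and in the sum of ribosomal protein genes (238088 CPM, others 91537 to 116490). MPP4 mutant 4 stood apart in Gp5 (0.817 CPM, a single count, others at 0) and in the sum of germline genes (363 CPM, others 262 to 271).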

How the results depend on the processing

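The count of 299 genes called between MPP4 mutants and HSC mutants rose to 956 with the replicate block by ID number, 905 with that block on the 6 paired libraries, 762 with a batch term, 1348 over 18 libraries with the block, 652 over 18 libraries without it, 458 with DESeq2, 711 without an expression filter and 644 in batch C alone, and ranged from 95 (without HSC mutant 2) to 355 (without HSC mutant 1) when 1 library was left out. It was 116 without HSC mutant 3, 132 without MPP4 mutant 4 and 221 without MPP4 mutants 2 and 3, the last setting and the 6 paired libraries being chosen after seeing the data. Without HSC mutant 1, 47.3% of calls were higher in MPP4, against 62.9% with it. The difference between contrasts gave 3 calls over 18 libraries with the block (Ly6g, Mmp9 and Slc4a1) and 1 without a filter (Iglv1). The control count of 620 was 1096 with the block and 268 to 656 with 1 library left out, the lowest without HSC control 2, and 401 without HSC control 3. Of 58 named genes called, 36 kept their call in all alternatives that tested them (up to 18), 22 lost it in at least 1 and none changed direction. Among those 58, leaving out HSC mutant 3 ended the calls of Procr, Tal1, Mllt3, Gimap8, Cdkn1c, Mycn and Jam3 among others, and leaving out HSC mutant 2 those of Tal1, Mllt3, Id2, Mycn, Emb and Itgax among others. Leaving out MPP4 mutant 4 ended those of Tal1, Mllt3, Gimap8, Cdkn1c, Ccng2, Mycn, Vldlr, Rora, Serpinb1a and Ifi27l2a, leaving out MPP4 mutant 3 those of Vldlr and Ifi27l2a, leaving out MPP4 mutant 1 those of Ighm, Rora and Ifi27l2a among others, and leaving out HSC mutant 1 those of Nfil3, H2-DMb1, Uchl1 and Vldlr. Without MPP4 mutant 2 the calls of Vldlr, Serpinb1a and Rora, and outside the 58 those of Gfi1b and Nkx2-3, were lost, and Nfil3, Itgax and Mycl fell below the expression filter. The block ended the calls of H2-Eb1 and Ighm among these. Among genes not called, Hlf (-0.02) changed sign to 0.073 with the block, 0.14 with a batch term, 0.070 over 18 libraries with the block, 0.18 in batch C and 0.0625 with the 6 paired libraries, and ranged from -0.51 to 0.27 with 1 library left out. Dnmt1 ranged from -0.12 (without HSC mutant 1) to 0.44 (without HSC mutant 2). The causes of these changes were not tested. Depth limits genes such as Il7r, with 62 counts in all.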

Other observations

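Ribosomal protein transcripts stood apart in the pair of mutant libraries that share the batch A ID number. The list of 81 genes summed to 238088 CPM in MPP4 mutant 1, against 91537 to 116490 CPM in the other MPP4 mutant libraries, and to 201200 CPM in HSC mutant 1, against 123079 and 132230 CPM in the other HSC mutant libraries. The control libraries of batch A held 126829 CPM (MPP4 control 1) and 131749 CPM (HSC control 1), so the high level was not seen in all libraries of that batch. The same mutant pair held most transcripts of Trbc1, a constant gene of the T cell receptor, with 193 CPM in MPP4 mutant 1, against 32.4, 0 and 1.63 CPM in MPP4 mutants 2 to 4, and with 49.3 CPM in HSC mutant 1, against none in HSC mutants 2 and 3.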
